A study of Mus musculus with 3 samples.

Results

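The binding of NUR77 was examined around 5 genes of lipid uptake and cholesterol efflux, Msr1, Lpl, Abca1, Abcg1 and Apoe, in RAW264.7 cells, an established mouse macrophage line. The members are the called peaks of chromatin immunoprecipitation sequencing (ChIP-seq) whose centre lay in a fixed window of mouse genome build mm9 around each gene, and the windows are set by position and not by peak values. The windows run from 40.60 to 40.80 Mb of chromosome 8 for Msr1, from 71.33 to 71.50 Mb of chromosome 8 for Lpl, from 52.98 to 53.25 Mb of chromosome 4 for Abca1, from 31.13 to 31.32 Mb of chromosome 17 for Abcg1 and from 20.23 to 20.34 Mb of chromosome 7 for Apoe. They hold 56 of the 52946 peaks in the series.

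The series has 1 group with 3 replicates. All cells were from a stable line with a doxycycline-inducible HA-NUR77 construct, induced with 1 µg/mL doxycycline for 18 hours from 24 hours after seeding, with 6 dishes per replicate. The antibody was against the HA tag, so the peaks are those of the overexpressed tagged protein and not of the NUR77 that the cells make themselves. No uninduced, untagged or input sample was analysed here, so no test between conditions was possible and the values below describe 1 condition. Replicate 1 has 6777 listed peaks, replicate 2 has 37307 and replicate 3 has 8862. Sequencing depth is unknown here, so a window without a peak is not shown to be unbound. The replicates had their own dishes, and no label tells if these were grown on different days. Gene expression was not measured in these files, so the identity of the cells could not be checked against macrophage markers.

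NUR77, encoded by Nr4a1, is an orphan nuclear receptor of the NR4A family that can bind as a monomer to the NBRE, a DNA element with the letters AAAGGTCA. Macrophages take up modified lipoproteins through scavenger receptors and fatty acids freed from lipoproteins by lipoprotein lipase. They export cholesterol through ABC transporters to apolipoprotein acceptors, and the liver X receptors (LXR) are the best known activators of the efflux genes.

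The files give no bases for the peaks, and no mm9 genome was used here, so the letters under a peak are not shown. The promoters of 2 of the 5 genes, Abca1 with 1 and Apoe with 3, were read from a RefSeq table of build GRCm38.p6, as 250 bases before to 50 bases after each start. None of these 4 promoters held AAAGGTCA on either strand, which occurs in 1.51% of the 32851 promoters of the table. None held the shorter AAGGTCA (4.72% of all promoters), the half-site AGGTCA (16.3%), or a pair of half-sites as a direct repeat spaced by 4 bases (0.0152%) or by 1 base (0.0396%), the arrangements that LXR and PPAR bind with RXR. The search took exact copies of these letters only, so repeats with inexact half-sites, which these receptors also bind, were not looked for. No other arrangement was searched, so this was not a full search for sites of NUR77. The last 5 letters of the element, GGTCA, were searched after these results and occurred in 2 of the 4 promoters and in 40.5% of all. The stretches around them are shown, with GGTCA in capitals, because of the parts searched this was the only one found in these 4 promoters. These letters also end the half-site AGGTCA, so they are not particular to the NBRE. The printed Abca1 letters also read as GGGTTA and CGGTCA spaced by 4 bases, a repeat of inexact half-sites that the exact search passes over. This was seen after the search, and binding to it was not tested. In Abca1 it lies on the strand opposite to the gene, with its middle base 65 bases before the start, and in Apoe on the gene's strand, 25 bases before 1 of the 3 starts.
Abca1: ggggttactaccGGTCAaacgctgttctct
Apoe: aggggagcggggGGTCAcaaggcatccaaa
Such matches are descriptions of letters. The builds differ, so no peak was placed on these promoters.

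Peaks were found in all 3 replicates at Msr1 and Abca1, and were nearly or wholly limited to replicate 2 at Lpl, Abcg1 and Apoe. The whole list of replicate 2 was 5.50 and 4.21 times as long as those of replicates 1 and 3. Of all its peaks, 74.3% had no counterpart in another list, so peaks of replicate 2 alone are usual. The 5 windows, 940 kb in all, held 10 peaks each in replicates 1 and 3, and 36 in replicate 2. Merging peaks that overlapped by at least 1 bp gave 37 regions. Of these, 12 held peaks of at least 2 replicates, here called shared regions, and 7 held peaks of all 3. The share of shared regions was 32.4% (95% Wilson interval 19.6 to 48.5, counting error only), against 25.4% of the 38463 merged regions of the whole series. For all 3 replicates it was 18.9% (9.48 to 34.2), against 12.3%. Both intervals include the share over the whole series. All 12 shared regions included replicate 2, and without that replicate 7 were shared between the remaining lists. Over the series there were 9755 shared regions, and 9590 replicate 2 peaks lay in shared regions, so the presence of replicate 2 is usual.

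The Msr1 window carried much of this. It held 7 of the 12 shared regions and 5 of the 7 regions of all 3 replicates. In the other 4 windows together, a summary added after the values were seen, 5 of 26 regions were shared (19.2%, interval 8.51 to 37.9) and 2 of 26 held all 3 replicates. Peak density over the 5 windows was 3.36 ± 0.737 times that of the nuclear chromosomes (SD, n = 3), or 4.17, 2.73 and 3.19 times in replicates 1, 2 and 3. Without Msr1 it was 1.90 ± 0.518, with 1.59, 2.50 and 1.62 in the same order. The windows were drawn around genes, while the whole-chromosome density includes gene-poor and unmappable sequence.

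**Figure D1:**
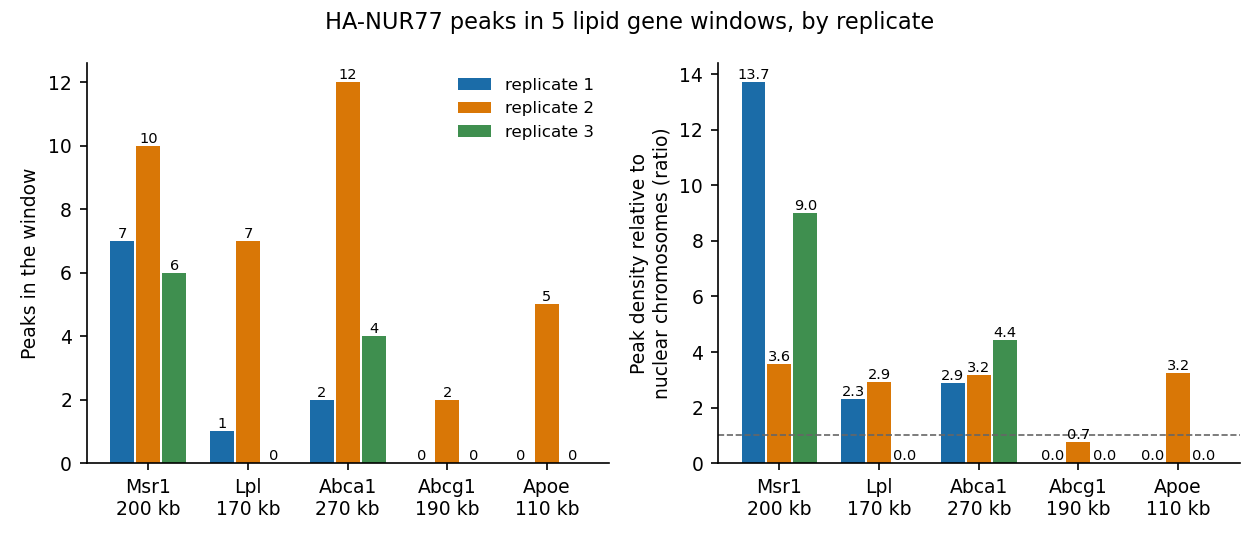
The left panel gives the number of peaks in each gene window and the right panel the peak density as a ratio to that of the nuclear chromosomes (dashed line at 1), with 1 bar per replicate and the window length under each gene. Msr1 held 7, 10 and 6 peaks in replicates 1, 2 and 3, while Abcg1 and Apoe had none in replicates 1 and 3.

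Msr1 encodes macrophage scavenger receptor 1, also called scavenger receptor A, which takes up modified low-density lipoprotein. Replicates 1, 2 and 3 had 7, 10 and 6 peaks in its window, or 7.67 ± 2.08 (mean ± SD, n = 3). Relative to the nuclear chromosomes, whose density follows the length of each list, the densities were 13.7, 3.56 and 8.99, or 8.75 ± 5.08 (mean ± SD, n = 3), so the replicates differed more than in the counts. Replicate 2 thus had 1.43 times as many peaks here as replicate 1, while over the whole lists it had 5.50 times as many. All 7 peaks of replicate 1 and 5 of the 6 of replicate 3 overlapped a peak of replicate 2. Such sharing is usual. Over the whole lists, 6392 of the 6777 peaks of replicate 1 and 8256 of the 8862 of replicate 3 lay in shared regions. The merged regions numbered 11, of which 5 held all 3 replicates, 2 held replicates 1 and 2, 3 held replicate 2 alone and 1 held replicate 3 alone. Of 13183 genome tiles of the same 200 kb length, 1.14% held at least 7 shared regions. The tiles were not matched for gene density and include unmappable sequence.

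The 7 shared Msr1 regions lay within 57.9 kb, with centres 1.88 to 24.9 kb from the next and a median step of 7.06 kb. The scale of the scores is not stated, so each score is given as a percentile. This is the percentage of the other peaks of the same list that scored lower, with tied peaks given their average rank. The lists differ in length, so the percentiles of 1 region are not like for like between replicates. Peaks of regions of all 3 replicates had medians of 60.1, 91.3 and 66.0 over the whole lists of replicates 1, 2 and 3. The highest region was chr8:40704819-40705518. Its scores in replicates 1, 2 and 3 were 238.348, 958.844 and 281.15, at percentiles of 97.5, 99.1 and 97.0. The replicate 2 score is a tie shared by 549 peaks. The next was chr8:40729769-40730418, with scores of 168.048, 671.417 and 197.318 and percentiles of 94.5, 96.6 and 93.9. Fewer than 10% of peaks scored higher than either region in every list, and their centres were 24.9 kb apart.

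Lower in the order came chr8:40737019-40737718, with scores of 76.845, 374.305 and 84.599 at percentiles of 76.7, 91.1 and 73.1. The region chr8:40679819-40680468 scored 72.142, 267.595 and 83.316, at percentiles of 74.1, 85.7 and 72.6. These 2 regions were above the middle of each list and close to each other in replicates 1 and 3. The fifth region of all 3 replicates, chr8:40693969-40694568, scored 27.719, 179.063 and 79.119. It was low within the list of replicate 1, at a percentile of 15.7. In replicates 2 and 3 it was above the middle of the list, at 77.2 and 70.6.

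The 2 Msr1 regions without replicate 3 had ranks 5 and 7 by score among the 7 shared regions of this window, in replicates 1 and 2 alike. The region chr8:40735169-40735818 was at percentiles of 40.9 in replicate 1 and 81.9 in replicate 2, and its centre was 1.88 kb from that of chr8:40737019-40737718. The region chr8:40687069-40687709 was at 4.21 and 43.3. Scores ranked the Msr1 regions alike in each list. The 7 regions with peaks in replicates 1 and 2 had the same order in both, and so had the 5 regions of all 3 replicates in each pair of lists. The unshared peaks of this window were low, at percentiles of 20.9 to 32.9 for the 3 of replicate 2 and 24.1 for the 1 of replicate 3. The highest of the 3 was chr8:40731719-40732168, and that of replicate 3 was chr8:40684876-40685125.

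**Figure D2:**
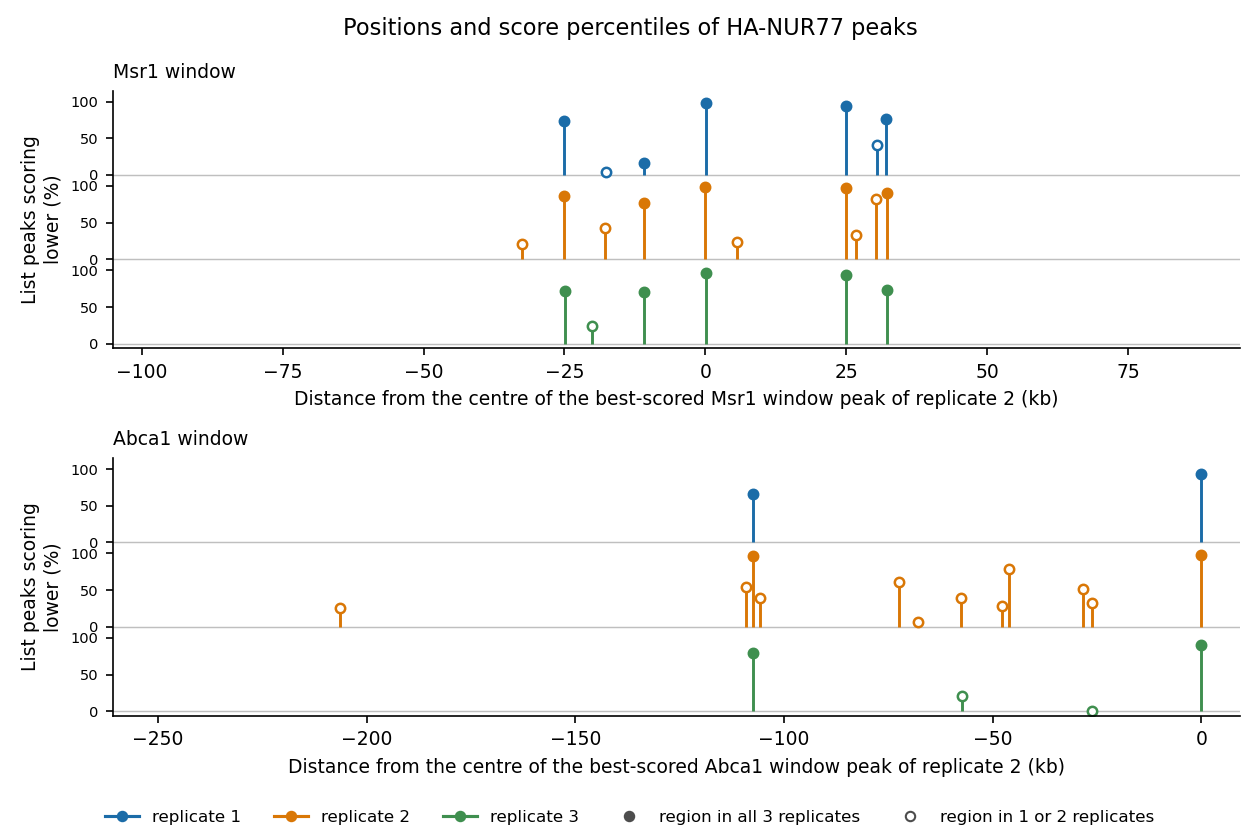
Each stem is a peak, placed by its distance in kb from the centre of the best-scored replicate 2 peak of the window, and its height is the percentage of peaks of the same list that scored lower. Filled circles mark regions with peaks in all 3 replicates (5 in the Msr1 window, 2 in the Abca1 window) and open circles the others; the 7 shared Msr1 regions are gathered within 57.9 kb, while the 2 filled Abca1 regions are 107 kb apart.

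Lpl encodes lipoprotein lipase, the secreted enzyme that frees fatty acids from the triglycerides of lipoproteins. Its window held 1 peak of replicate 1, 7 of replicate 2 and none of replicate 3, or relative densities of 2.30, 2.93 and 0. The 1 shared region, chr8:71432369-71432968, scored 29.903 in replicate 1 and 99.262 in replicate 2, at percentiles of 21.6 and 58.9. It was thus low within the list of replicate 1 and middling within that of replicate 2, though by rank it was at 5310 and 15343. The centres were 9 bp apart in the 2 lists. Of genome tiles of the same length, 29% held at least 1 shared region. The 6 unshared peaks of replicate 2 were at percentiles of 6.22 to 58.8, and the highest was chr8:71346519-71347018. Without replicate 1 or without replicate 2 no shared region was left in this window.

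The border of the Lpl window leaves out stronger neighbours. The nearest peaks beyond its end were 29.2 kb away in replicates 1 and 3. They belong to chr8:71528919-71529568, with scores of 150.974, 958.844 and 128.39 in replicates 1, 2 and 3 and percentiles of 93.2, 99.1 and 86.2. Its replicate 2 score is the same tie of 549 peaks as at Msr1. A second region of all 3 replicates, chr8:71536319-71537018, was at percentiles of 81.8, 95.5 and 74.5. With the windows widened by 50 kb on each side, Lpl had 3 shared regions in place of 1. Abca1 then had 5 in place of 4. The added region, chr4:53254676-53255175, was at percentiles of 34.6 in replicate 2 and 45.7 in replicate 3. Which gene these neighbours belong to was not determined here.

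Abca1 encodes the ABC transporter that passes cholesterol and phospholipid to lipid-poor apolipoprotein A-I. Replicates 1, 2 and 3 had 2, 12 and 4 peaks in its window. The densities relative to the nuclear chromosomes were 2.90, 3.16 and 4.44, or 3.50 ± 0.822 (mean ± SD, n = 3). This was the window in which the 3 replicates were closest in relative density among the 3 windows with a shared region. The 12 merged regions comprised 2 of all 3 replicates, 2 of replicates 2 and 3 and 8 of replicate 2 alone. Of tiles of the same length, 9.32% held at least 4 shared regions. The Abca1 count rested on the weaker regions: without replicate 2, or without replicate 3, the number of shared regions was 2.

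The stronger of the Abca1 regions was chr4:53240476-53241175, whose centre lay 9.18 kb inside the window's end. Replicates 1, 2 and 3 gave it scores of 146.926, 898.567 and 154.325, at percentiles of 92.8, 98.1 and 89.9. The other, chr4:53133026-53133725, was 107 kb away and scored 59.248, 628.887 and 99.7, at percentiles of 65.8, 96.2 and 78.9. Both were well above the middle of each list, and the first outscored the second in every replicate. In replicate 2, chr4:53133026-53133725 had unshared peaks on both sides, chr4:53131576-53131975 and chr4:53134776-53135125, at percentiles of 53.9 and 38.8.

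The 2 Abca1 regions of replicates 2 and 3 were weak. The region chr4:53182926-53183586 was at percentiles of 39.3 in replicate 2 and 20.7 in replicate 3, and its 2 peaks had centres 261 bp apart. The region chr4:53214476-53214875 was at 32.7 and 0.790, so its replicate 3 peak was among the lowest of that list. The 8 unshared peaks of replicate 2 ranged from a percentile of 6.85 to 79.5. The highest of them, chr4:53194376-53195025, scored 197.42 and was also the highest unshared peak of all 5 windows. In the gene order of the RefSeq table, Abca1 stands between Nipsnap3b and the long non-coding RNA gene Lexis1, with Mexis, whose RNA is known to enhance Abca1 transcription by LXR, a little further on. The table is of another build, so the regions were not assigned to Abca1 or to these neighbours.

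Abcg1 encodes the ABC transporter that passes cholesterol to mature high-density lipoprotein. Its window held no peak in replicates 1 and 3 and 2 peaks in replicate 2, chr17:31142099-31142548 and chr17:31176649-31177048. They scored 47.024 and 78.359, at percentiles of 29.1 and 50.2, so 1 was below the middle of its list and the other close to it. The density in replicate 2 was 0.749 times that of the nuclear chromosomes, the lowest of the 5 windows in that replicate. The nearest peaks of replicate 1 lay 806 kb before and 811 kb after the window, and those of replicate 3 796 kb before and 840 kb after. A window of this length without a shared region was common: 69.1% of tiles had none.

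Apoe encodes apolipoprotein E, which macrophages secrete and which accepts exported cholesterol. Its window also held no peak in replicates 1 and 3. The 5 peaks of replicate 2 had scores of 40.299 to 111.442 and percentiles of 22.6 to 62.8, and the highest was chr7:20301512-20301861. Their density was 3.23 times that of the nuclear chromosomes, close to the values of replicate 2 at Abca1 (3.16) and Msr1 (3.56). None was seen in another list, as held for 74.3% of all replicate 2 peaks. Of tiles of this length, 77.6% had no shared region. In the RefSeq gene order Apoe stands between Apoc1 and Tomm40, with Apoc4 and Apoc2, a cofactor of lipoprotein lipase, close by, so the 5 peaks were not assigned to a single gene.

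The names of the peaks carry running numbers, some of which are absent from the lists, so peaks may have been numbered in these windows and not listed. Between the listed neighbours of the Abcg1 window 4 numbers were absent in replicate 1 and 4 in replicate 3, and around Apoe 5 and 2. In these replicates the neighbours lay 796 to 840 kb from the Abcg1 window and 61.8 to 179 kb from the Apoe window. The absent numbers may therefore lie outside the windows. Between the first and the last listed peak of each window, over the 5 windows, 9.09%, 16.3% and 33.3% of the numbers were absent in replicates 1, 2 and 3. Over the whole lists 39.1%, 19.7% and 38.8% were absent, so such gaps are usual. The window values leave out numbers outside the first and last listed peak, and windows without a listed peak. The 2 measures are therefore unlike. The positions behind absent numbers are unknown here.

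The 7 regions of all 3 replicates were also compared by score across genes. The Msr1 region chr8:40704819-40705518 was the highest of them in each list and chr8:40693969-40694568 the lowest. Of the 21 pairs among them, 18 had the same order in all 3 lists. The Abca1 region chr4:53240476-53241175 had rank 3 among them in replicates 1 and 3 and rank 2 in replicate 2. The Abca1 region chr4:53133026-53133725 had rank 6 in replicate 1 and rank 4 in replicates 2 and 3. Spearman's rho was 0.86 for replicates 1 and 2, 0.89 for replicates 1 and 3 and 0.96 for replicates 2 and 3, over 7 regions of the same libraries, as a description.

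All peaks of the 5 windows together had median percentiles of 70.0, 44.0 and 72.8 in replicates 1, 2 and 3, so those of replicate 2 lay below the middle of their list and the others above it. For the same replicates, the peaks of these 7 regions had median percentiles of 76.7, 96.2 and 78.9. The medians over all such peaks of the lists were 60.1, 91.3 and 66.0. The distance between the outermost of the 3 peak centres of a region ranged from 18 to 132 bp. Its median was 86 bp, and 64 bp over the 4723 such regions of the series. The 12 shared regions spanned 400 to 700 bp each. Their median width of 650 bp was that of the series to within 1 bp (649 bp).

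Peaks of replicate 2 without a counterpart in another list made up most of its peaks in these windows, as they do in its whole list. They were 24 of the 36 replicate 2 peaks (66.7%), against 74.3% of all replicate 2 peaks. Their median percentile was 38.2, against 38.8 for all unshared peaks of that list. Of the 24, 8 were at Abca1, 6 at Lpl, 5 at Apoe, 3 at Msr1 and 2 at Abcg1.

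**Figure D3:**
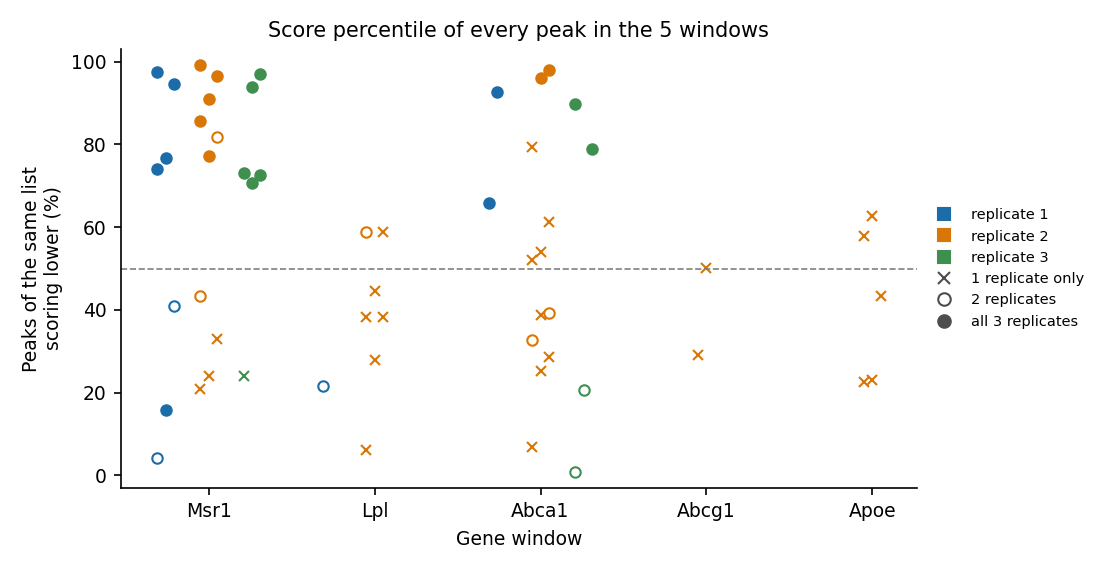
Each point is a peak, placed by gene window and by the percentage of peaks of its own list that scored lower, with the dashed line at 50. Filled circles (all 3 replicates) are found at Msr1 and Abca1 and all but 1 lie above the line, while the replicate 2 peaks at Apoe and Abcg1 are crosses (1 replicate only) that do not exceed 62.8.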

How the data were processed

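The authors deposited 1 peak list per replicate (3 in all), which gives each peak its position and score. Coordinates are of mm9, per the submitters' processing notes. Peak names have the form MACS gives. Per the series' design text, input data of other studies served as controls. For the aligner, caller version and threshold, values were not given in the sources used here. Scores were used to rank peaks within their own list. The authors' deposited table of intervals in at least 2 replicates gave 12 joined regions in the windows (4 at Abca1, 7 at Msr1, 1 at Lpl), the same number as rebuilt here.

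Peaks were taken by centre, merged by overlap of at least 1 bp, and given 1-based. Densities used mm9 lengths from GenomeInfoDb 1.38.1. Tiles were adjacent stretches of the numbered chromosomes and X. Merging was tested on simulated data (100% of 2000 planted regions recovered). The planted peaks had 1 width, always overlapped their copies and were widely spaced, so this checked the code and not the choice of overlap. The rule named all shared regions and the best unshared peak of each window. Other unshared peaks (2 at Abca1, 1 at Abcg1 and the replicate 3 peak at Msr1) were named after their values were seen. Members and lists were chosen with earlier results of these data known. Other pathway genes were not counted, as this needs an mm9 annotation, not used here. The tools were pandas 2.3.3 and numpy 2.4.6 under Python 3.11.15, with scipy 1.17.1 for intervals and matplotlib 3.10.9 for plots.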

Additional observations from a re-analysis of the deposited data

How the results depend on the processing

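The number of shared regions (12) was 9 with an overlap of 50% of both peaks or with centres within 100 bp, and 7 with the higher-scored 50% of each list, as fewer peaks enter. Leaving out 1 replicate gave 7 to 10, lowest without replicate 2, and a share of shared regions of 24.3% to 53.8%, against 32.4%. With 6777 peaks from each list 8 of 11 regions were shared (72.7%), as replicate 2 then contributes fewer unshared peaks. For equal lists or with a replicate left out, the share over the whole series is not given. The shares under these settings can therefore not be set against the 25.4% of the full lists. Without the Msr1 window, chosen after seeing the data, 5 regions were shared (19.2%), 2 held all 3 replicates and the relative density was 1.90, since this window holds most of the shared regions. The density over the 5 windows ranged from 2.90 with windows widened by 50 kb to 4.01 with the higher-scored 50%, and from 2.96 to 3.68 with a replicate left out. The mean of the replicates' median percentiles (62.3) ranged from 57.0 to 71.4 with a replicate left out. Of 45 counts per window under the alternatives, 36 were within 1.5 times the reported count, and the 9 others were all at Abca1 or Lpl. At Lpl the shared region was absent with the higher-scored 50% and with equal lists, and at Abca1 both gave 2. Abcg1 and Apoe had 0 shared regions under each alternative, and these counts are among the 36. Both windows held peaks of replicate 2 only, so stricter merging, fewer peaks or a dropped replicate could not have changed their counts. The shorter GGTCA, chosen after seeing the data, was in 2 member promoters where the NBRE was in 0, as shorter letters match more often. No paired analysis was possible because the series has 1 group.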
